A study of Homo sapiens with 4 samples.

Results

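Genes of the heat shock proteins and their DNAJ co-chaperones were followed in PC3 cells after knockdown of METTL3, the enzyme that places the N6-methyladenosine mark on messenger RNA. Members were the protein-coding rows whose name begins with HSPA, HSPB, HSPD, HSPE, HSPH or HSP90, or with DNAJA, DNAJB or DNAJC and a digit, which gave 77 of 60544 rows of the deposited gene table. PC3 is an established human prostate cancer line, grown here in RPMI-1640 with serum. Poly(A) RNA was sequenced from 2 libraries labelled shNC and 2 labelled sh812. The series design sets METTL3 knockdown against control without naming the hairpins; shNC was read as the control and sh812 as the knockdown. The labels give 1 knockdown hairpin, name no other agent, and do not say whether replicates were separate cultures or clones, so p-values measure only the spread between these libraries. In bulk RNA, fewer cells of a kind and less RNA per cell cannot be told apart.

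Hsp70 proteins, named HSPA, bind exposed stretches of unfolded proteins in a cycle driven by ATP. DNAJ proteins (Hsp40) bring substrates to Hsp70 and stimulate its ATPase through the J domain, and nucleotide exchange factors such as HSPH1 and HSPA4 reset the cycle. Hsp90 proteins act later, on proteins close to their native state, and HSPD1 with its lid HSPE1 forms the folding chamber of the mitochondrial matrix. Each compartment has its own set. Heat shock factor HSF1 induces some of the cytosolic genes, and also HSPD1 and HSPE1. The unfolded protein response, through ATF6, XBP1 and ATF4, induces some of those of the endoplasmic reticulum (ER). Members were described by location, with 42 in the cytosol and nucleus, 14 in the ER, 8 in the mitochondrion and 13 placed elsewhere or not assigned.

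The libraries held 31450648 to 37041330 counts, and the members took 1.89% to 1.98% of them. METTL3 measured 44.3 and 43.6 CPM (counts scaled to the TMM library size) in shNC against 7.66 and 8.75 CPM in sh812, a log2 fold change of -2.42 (SE 0.11; edgeR adjusted p = 5.54e-14). The epithelial markers EPCAM, KRT8 and KRT18 were present in every library, at mean levels of 73.2, 231.9 and 154.04 CPM in shNC. KLK2, KLK3 and CD3E had 0 counts in all 4 libraries. EPCAM (99.8 CPM in sh812) and KRT18 (189.8 CPM in sh812) were called higher. Of the other blood and stromal markers, LYZ had at most 2 counts and PTPRC at most 32 counts in a library, while COL1A1 (38.5 CPM in shNC against 31.9 in sh812) was detected and PECAM1 (23.7 against 35.7 CPM) was called higher. The part of these markers in the results below was not tested. The labels carry neither a date nor a batch, and a batch cannot be told apart from the group.

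Promoter windows from RefSeq (build GRCh38.p14, from 250 bases before to 50 bases after a start site) were found for 68 of the 77 members. They are shown because the 2 chaperone programmes are read at such sequences. The heat shock element was searched on both strands as GAA, TTC and GAA, each 2 bases of any kind apart, which reads TTC, GAA and TTC on the other strand. It stood in windows of 7 of the 68 members (10.3%) and in 0.49% of all 35116 windows. These 2 shares differ in unit, as a gene can have more than 1 window. The matches are in capitals, each with up to 10 bases on either side, 5′ to 3′ on the strand of the gene.
HSPD1 (chr2:197500058-197500090): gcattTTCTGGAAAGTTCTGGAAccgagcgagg
HSP90AB1 (chr6:44247768-44247800): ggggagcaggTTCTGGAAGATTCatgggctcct
HSP90AB1 (chr6:44247821-44247853): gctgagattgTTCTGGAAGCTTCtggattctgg
HSP90AA1 (chr14:102087110-102087142): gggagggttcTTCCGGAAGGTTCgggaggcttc
HSPA8 (chr11:123062169-123062201): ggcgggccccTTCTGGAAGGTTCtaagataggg
HSPA8 (chr11:123062344-123062376): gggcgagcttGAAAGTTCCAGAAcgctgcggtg
HSPA6 (chr1:161524456-161524488): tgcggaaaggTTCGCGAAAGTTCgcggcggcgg
DNAJA1 (chr9:33025266-33025298): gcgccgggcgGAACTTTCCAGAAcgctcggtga
DNAJB6 (chr7:157336863-157336895): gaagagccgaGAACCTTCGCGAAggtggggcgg
In HSPD1 the capitals hold 2 overlapping matches, on opposite strands, that span 18 bases. The windows of HSPA1A, HSPA1B, HSPB1, HSPH1 and DNAJB1 held no match to these letters, which says nothing of other spellings of the element.

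The ER stress response element was searched on both strands as CCAAT, 9 bases of any kind and CCACG, which reads CGTGG, 9 bases and ATTGG on the other strand. It stood in 0.0769% of all windows. Counted by gene, it stood in those of 2 members (2.94% of the members with a window), HSPA5 and HSP90B1, the most abundant of the ER members. HSP90B1 had 2 matches, on opposite strands, and HSPA5 had 1. Both windows are printed whole, 5′ to 3′ on the strand of the gene, with the matches in capitals.
HSPA5 (chr9:125241294-125241593, minus strand): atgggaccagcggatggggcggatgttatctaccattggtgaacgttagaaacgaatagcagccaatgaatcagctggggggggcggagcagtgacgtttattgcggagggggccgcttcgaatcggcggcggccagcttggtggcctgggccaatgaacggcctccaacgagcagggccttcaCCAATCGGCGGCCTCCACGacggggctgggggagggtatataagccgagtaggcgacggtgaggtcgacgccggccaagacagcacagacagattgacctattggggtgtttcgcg
HSP90B1 (chr12:103930160-103930459, plus strand): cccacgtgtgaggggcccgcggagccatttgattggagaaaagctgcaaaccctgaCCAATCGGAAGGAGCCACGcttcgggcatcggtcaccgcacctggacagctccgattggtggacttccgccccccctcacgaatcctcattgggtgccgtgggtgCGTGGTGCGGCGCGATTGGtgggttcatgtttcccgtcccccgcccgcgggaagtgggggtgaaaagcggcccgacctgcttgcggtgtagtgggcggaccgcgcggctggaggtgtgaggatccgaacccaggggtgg
HSPD1 and HSPE1 lie head to head on chromosome 2 and are transcribed in opposite directions. The window of HSPE1 shares 204 bases with a window of HSPD1 (chr2:197500225-197500524), and neither of these windows holds a match to either element. The heat shock element matches of HSPD1 lie in its other window (chr2:197499791-197500090), which shares 0 bases with that of HSPE1. The 204 shared bases are in capitals here.
HSPE1 (chr2:197500129-197500428, plus strand): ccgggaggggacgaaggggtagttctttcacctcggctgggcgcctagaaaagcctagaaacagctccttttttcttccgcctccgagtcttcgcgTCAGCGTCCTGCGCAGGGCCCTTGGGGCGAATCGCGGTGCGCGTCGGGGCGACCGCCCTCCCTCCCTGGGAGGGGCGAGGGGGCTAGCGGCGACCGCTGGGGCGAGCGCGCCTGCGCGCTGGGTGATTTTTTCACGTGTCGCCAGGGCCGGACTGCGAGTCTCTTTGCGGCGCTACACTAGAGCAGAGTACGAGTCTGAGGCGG

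The members covered a wide range of levels, and 6 genes held most of their RNA. The cytosolic Hsp90 genes HSP90AA1 and HSP90AB1, the constitutive Hsp70 gene HSPA8, HSPD1, and the ER genes HSPA5 and HSP90B1 each exceeded 1000 CPM and together made up 74.9% of the members' summed CPM. A further 16 members lay between 100 and 1000 CPM, and 31 between 10 and 100 CPM. Per kilobase of annotated exon, the control levels were 1134 CPM for HSP90AB1, 797 for HSP90AA1, 434 for HSPA8, 361 for HSPD1, 347 for HSPA5 and 295 for HSP90B1. HSPE1, whose product caps the HSPD1 ring, measured only 14.1 CPM per kilobase. Its rows named as pseudogenes held a further 4.75% to 7.2% of its count, and the readthrough gene HSPE1-MOB4, which overlaps 9.7% of its exon bases on the same strand, had 0 counts. Of the exon bases of HSPE1-MOB4, 100% overlap HSPE1 or MOB4 on that strand. What these do to the HSPE1 level was not tested.

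Of the 77 members, 64 passed the low-count filter and 13 did not. Of the 64 tested, 6 were higher and 3 lower in sh812 by the quasi-likelihood test of edgeR, at a threshold of 0.05 on p-values adjusted by Benjamini-Hochberg over all 16802 genes tested. That is 14.1% of the tested members, against 10.8% of all genes tested (5.43% higher, 5.42% lower) and 13% of the protein-coding genes tested, so the share called was near the background. By name, 7 of 25 tested HSP genes (28%) and 2 of 39 tested DNAJ genes (5.13%) were called. Of the 39 DNAJ genes, 18 had a log2 fold change above 0 and 21 below. Calls were then read by compartment. In the cytosol and nucleus 4 of 33 tested members were called higher and 0 lower, in the ER 0 of 14 higher and 2 lower, and in the mitochondrion 2 of 8 higher and 0 lower. The remaining call was lower, DNAJC13. Median log2 fold changes were 0.070 in the cytosol and nucleus, -0.14 in the ER lumen, -0.057 in the ER membrane and 0.094 in the mitochondrion, against -0.0056 over all genes tested. The signs of the cytosolic, ER lumen and mitochondrial medians were the same with RLE, upper quartile and library size scaling. The members' overall median of 0.025 was -0.020 with library size alone, which moved the median of all genes to -0.050.

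**Figure D1:**
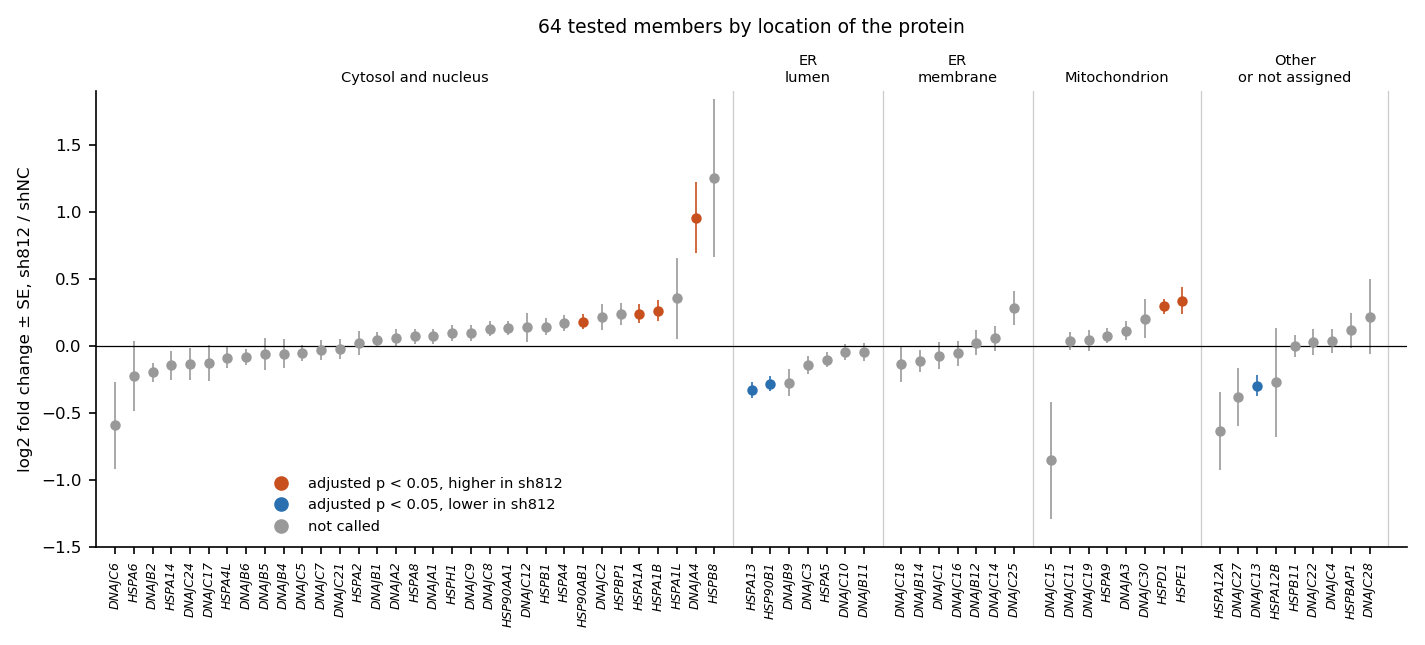
Log2 fold change of sh812 over shNC in edgeR (vertical axis) for the 64 tested members, grouped by location of the protein, with bars of 1 standard error and 2 libraries per group. Orange points (6) were called higher and blue points (3) lower, and the 7 ER lumen members all lie below 0.

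Both cytosolic Hsp90 genes lay above control in each sh812 library, and 1 of them passed the test. HSP90AB1 (ENSG00000096384, chromosome 6, 44246166 to 44253888 in GENCODE 29), the constitutive form, measured 3331 and 3425 CPM in shNC against 3919 and 3742 CPM in sh812. Its log2 fold change was 0.18 (SE 0.05; edgeR adjusted p = 0.0275), a rise of 13.4%. HSP90AA1, the more inducible form, measured 4281 and 4083 CPM in shNC against 4714 and 4463 CPM in sh812. The groups did not overlap, as in 53.6% of all genes tested, and its log2 fold change of 0.13 (SE 0.05) had an adjusted p of 0.112 in edgeR. HSP90AA1 was called without the low-count filter (adjusted p = 0.0108), without shNC replicate 1 (log2 fold change 0.17, adjusted p = 2.85e-06) and without shNC replicate 2 (0.11, adjusted p = 0.00548). HSP90AB1 was not called with library size alone (0.14, adjusted p = 0.0508), with each library's trend of counts on exon length removed (0.12, adjusted p = 0.112), without sh812 replicate 1 (0.15, adjusted p = 0.465) or without sh812 replicate 2 (0.21, adjusted p = 0.179).

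Among the cytosolic Hsp70 genes, the stress-inducible pair HSPA1A and HSPA1B rose while the constitutive HSPA8 did not pass the test. HSPA1A (ENSG00000204389, chromosome 6, 31815464 to 31817946) measured 97.5 and 99.6 CPM in shNC against 124.4 and 108.4 CPM in sh812, with a log2 fold change of 0.24 (SE 0.07; edgeR adjusted p = 0.0262). HSPA1B (ENSG00000204388, chromosome 6, 31827735 to 31830255) measured 44.1 and 43.0 CPM in shNC against 52.5 and 52.03 CPM in sh812, with a log2 fold change of 0.26 (SE 0.08; edgeR adjusted p = 0.0286). In both genes the 2 sh812 libraries lay above the 2 shNC libraries. The pair encode near-identical proteins from neighbouring copies, so the split of reads between them is uncertain, and another annotated gene on the same strand covers 36.5% of the exon bases of HSPA1B. HSPA8 measured 2043 and 2162 CPM in shNC against 2253 and 2162 CPM in sh812, with overlapping groups and a log2 fold change of 0.07 (SE 0.05; edgeR adjusted p = 0.467). It was called only without shNC replicate 2 (0.12, adjusted p = 0.00754). HSPA6, a strictly heat-inducible Hsp70 chosen after its values were seen, measured 2.43 and 3.92 CPM in shNC against 2.62 and 2.77 CPM in sh812, with overlapping groups (log2 fold change -0.23, SE 0.26). HSPA1L, next to the pair on chromosome 6, measured 1.87 and 1.80 CPM in shNC against 1.79 and 2.91 CPM in sh812 (log2 fold change 0.35, adjusted p = 0.517 in edgeR).

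The calls of the inducible pair depended on the setting. HSPA1A lost its call with library size alone (log2 fold change 0.20, adjusted p = 0.0728), with the length trend removed (0.17, adjusted p = 0.112) and without sh812 replicate 1 (0.14, adjusted p = 0.573). HSPA1B lost it with library size alone (0.22, adjusted p = 0.0755), with the length trend removed (0.19, adjusted p = 0.109), without sh812 replicate 1 (0.26, adjusted p = 0.248) and without sh812 replicate 2 (0.27, adjusted p = 0.196). Both transcripts are short for this table: the 2483 exon bases of HSPA1A exceed those of 24.7% of tested genes, and the 2521 of HSPA1B those of 25.3%. Across 12257 genes, the change between groups had a Spearman correlation with exon length of -0.297, and the difference of shNC replicate 2 from replicate 1 one of -0.304, while that of sh812 replicate 2 from replicate 1 had 0.031. Genes are not independent replicates.

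The exchange factors and small heat shock proteins of the cytosol gave no call with the main settings. HSPH1 (Hsp110) measured 341.7 and 327.0 CPM in shNC against 368.3 and 345.6 CPM in sh812, a log2 fold change of 0.09 (SE 0.06; edgeR adjusted p = 0.338). HSPA4, another Hsp110 protein, measured 280.4 and 291.7 CPM in shNC against 325.9 and 317.7 CPM in sh812, a log2 fold change of 0.17 with an adjusted p of 0.058 in edgeR. HSPBP1, which also releases nucleotide from Hsp70, had a log2 fold change of 0.24 (adjusted p = 0.0671 in edgeR). HSPA4 was called with DESeq2 (adjusted p = 0.0371), limma-voom (0.0411), no low-count filter (0.0459) and the length trend removed (0.0292), and without shNC replicate 1 (0.0484) or shNC replicate 2 (0.000758). HSPBP1 was called with limma-voom (0.0489), no low-count filter (0.0435) and the replicate block (0.0464), and without shNC replicate 2 (log2 fold change 0.38, adjusted p = 3.04e-05). HSPA4 and HSPBP1 were chosen after their values were seen. HSPB1 (Hsp27), a small chaperone that holds unfolded proteins without ATP, measured 165.1 and 170.3 CPM in shNC against 190.4 and 180.3 CPM in sh812, a log2 fold change of 0.14 (SE 0.06; edgeR adjusted p = 0.131). It was called only without shNC replicate 2 (0.17, adjusted p = 0.0174). Of the 9 HSPB rows, the readthrough gene HSPB2-C11orf52 included, 6 were too low to test.

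Of the cytosolic J proteins only DNAJA4 passed the test. DNAJA4 (ENSG00000140403, chromosome 15, 78264086 to 78282196), a minor relative of DNAJA1, had 67 and 50 counts in shNC and 115 and 116 counts in sh812. That is 1.77 and 1.58 CPM against 3.28 and 3.24 CPM, a log2 fold change of 0.96 (SE 0.27; edgeR adjusted p = 0.021). Genes on the opposite strand cover 6.7% of its exon bases. Its level was far below that of DNAJA1, at 0.494 CPM per kilobase in sh812 against 156. DNAJA4 was not called without sh812 replicate 1 (0.95, adjusted p = 0.115) or without sh812 replicate 2 (0.96, adjusted p = 0.0964). DNAJA1, a main partner of HSPA8, measured 402.3 and 408.9 CPM in shNC against 432.4 and 420.1 CPM in sh812 (log2 fold change 0.07, SE 0.06, adjusted p = 0.471 in edgeR). DNAJB1, the classical heat-induced J protein, measured 291.6 and 286.5 CPM in shNC against 300.7 and 296.3 CPM in sh812 (log2 fold change 0.05, SE 0.06, adjusted p = 0.682 in edgeR). Both lay slightly above control in each sh812 library, as did 26.2% of all genes tested. DNAJB2 and DNAJB6, chosen after their values were seen, lay below control in each, as did 27.4% of all genes. DNAJB2 measured 64.5 and 62.5 CPM in shNC against 54.4 and 56.4 CPM in sh812 (log2 fold change -0.20, SE 0.07, adjusted p = 0.0823 in edgeR). It was called lower with library size alone (-0.24, adjusted p = 0.0368). DNAJB6 had a log2 fold change of -0.08 (adjusted p = 0.418 in edgeR). DNAJC6 (auxilin), which uncoats clathrin vesicles with HSPA8, measured 2.00 and 1.96 CPM in shNC against 1.34 and 1.29 CPM in sh812, a log2 fold change of -0.59 with an adjusted p of 0.273 in edgeR.

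**Figure D2:**
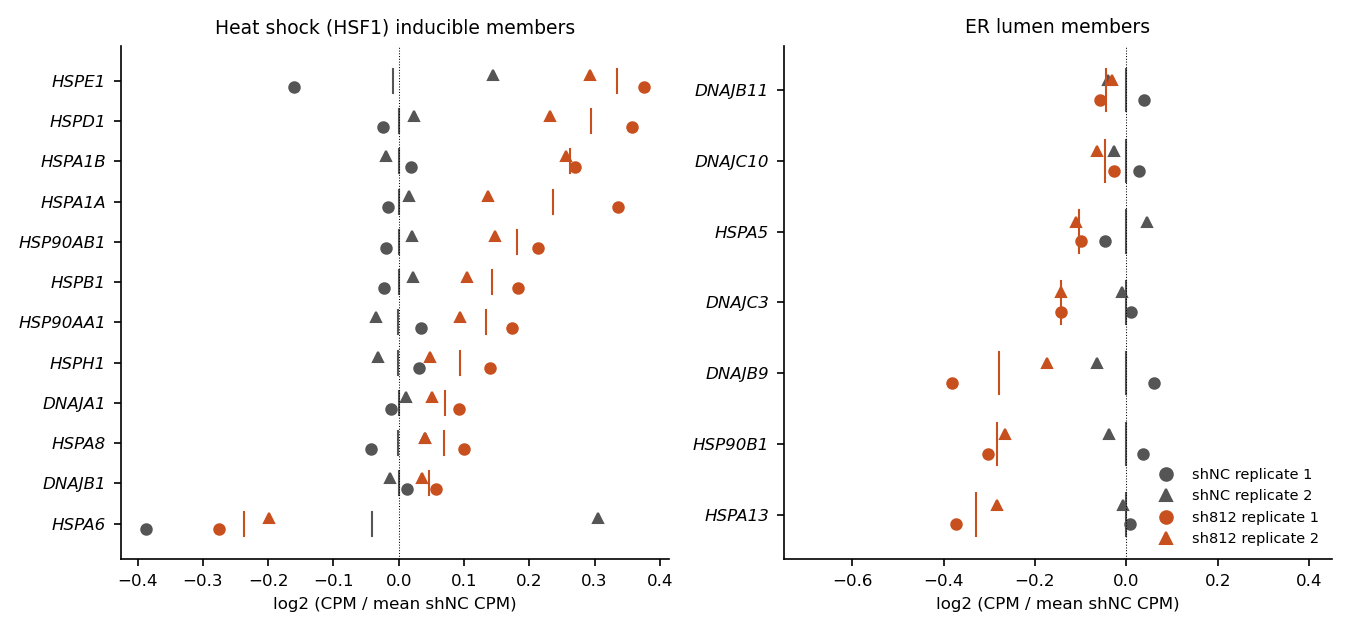
Level of each gene in each library, as log2 of its CPM over the mean CPM of the 2 shNC libraries (horizontal axis), for the 12 members of a list of HSF1 targets (left) and 7 ER lumen members (right). Circles are replicate 1, triangles replicate 2 and vertical lines the mean of each group on this scale; 11 of the 12 genes on the left have a positive fitted change, and all 7 on the right a negative one.

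The ER lumen members lay below control. All 7 had a negative log2 fold change, 2 passed the test, and in 6 of the 7 both sh812 libraries were below both shNC libraries, as in 27.4% of all genes tested. HSPA13 (ENSG00000155304, chromosome 21, 14371115 to 14383484), an Hsp70 relative of microsomes, measured 175.6 and 173.9 CPM in shNC against 134.8 and 143.7 CPM in sh812. Its log2 fold change was -0.33 (SE 0.06; edgeR adjusted p = 0.000939). HSP90B1 (ENSG00000166598, chromosome 12, 103930107 to 103953645) encodes GRP94, the Hsp90 of the ER, which folds integrins and Toll-like receptors. It measured 1419 and 1347 CPM in shNC against 1122 and 1151 CPM in sh812, with a log2 fold change of -0.28 (SE 0.05; edgeR adjusted p = 0.00145). HSPA13 and HSP90B1 were called under every alternative that kept all 4 libraries. They were not called without sh812 replicate 1, where HSPA13 had a log2 fold change of -0.28 (adjusted p = 0.0914) and HSP90B1 one of -0.26 (adjusted p = 0.0983).

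The main ER Hsp70, HSPA5 (BiP), had a smaller difference. It measured 1313 and 1399 CPM in shNC against 1266 and 1257 CPM in sh812, a log2 fold change of -0.10 (SE 0.06; edgeR adjusted p = 0.246). It was called with library size alone (-0.15, adjusted p = 0.0488) and without shNC replicate 1 (-0.15, adjusted p = 0.00222). DNAJB9 (ERdj4), a J protein that holds BiP on the stress sensor IRE1, measured 27.6 and 25.4 CPM in shNC against 20.3 and 23.5 CPM in sh812, a log2 fold change of -0.28 (SE 0.10; edgeR adjusted p = 0.086). It was called with the length trend removed (-0.34, adjusted p = 0.0346) and without shNC replicate 2 (-0.33, adjusted p = 0.0232). DNAJC3 (P58IPK), a lumenal J protein that also inhibits the kinase PERK, measured 70.0 and 69.06 CPM in shNC against 62.96 and 63.01 CPM in sh812 (log2 fold change -0.14, SE 0.07, adjusted p = 0.21 in edgeR). DNAJC10 (ERdj5), a disulfide reductase, and DNAJB11 (ERdj3), which binds substrates with BiP, were closest to 0. Their log2 fold changes were -0.05 (edgeR adjusted p = 0.689) and -0.04 (0.737). With the length trend removed, 1 of the 7 ER lumen members had a positive value, and their median was -0.13.

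The 7 J proteins anchored in the ER membrane gave no call, and 1 of them had an unadjusted p under 0.05. Their log2 fold changes ran from -0.14 to 0.28, with 3 above 0 and 4 below. DNAJC25 had the highest, at 10.5 and 10.8 CPM in shNC against 13.05 and 12.8 CPM in sh812 (adjusted p = 0.156 in edgeR). Its readthrough partner DNAJC25-GNG10 had 0 counts in all libraries. Of the exon bases of DNAJC25-GNG10, 100% overlap DNAJC25 or GNG10 on the same strand, so the 0 may come from how shared reads were counted. This was not tested. DESeq2 and limma-voom also called none of these 7 genes.

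In the mitochondrion, both chaperonin genes rose. HSPD1 (Hsp60, ENSG00000144381, chromosome 2, 197486581 to 197516737) measured 1506 and 1556 CPM in shNC against 1961 and 1798 CPM in sh812, with a log2 fold change of 0.30 (SE 0.06; edgeR adjusted p = 0.00119). HSPE1 (Hsp10, ENSG00000115541, chromosome 2, 197499994 to 197503457) measured 24.9 and 30.8 CPM in shNC against 36.2 and 34.1 CPM in sh812, with a log2 fold change of 0.34 (SE 0.10; edgeR adjusted p = 0.0279). For both genes the 2 sh812 libraries were above the 2 shNC libraries. The exons of HSPD1 overlap 14.2% of the exon bases of HSPE1 on the other strand. HSPD1 was called under every alternative that kept all 4 libraries, and lost its call without sh812 replicate 1 (0.23, adjusted p = 0.155). HSPE1 lost its call with library size alone (0.29, adjusted p = 0.0606), with the length trend removed (0.24, adjusted p = 0.0918), and without shNC replicate 1 (0.19, adjusted p = 0.26), sh812 replicate 1 (0.30, adjusted p = 0.229) or sh812 replicate 2 (0.38, adjusted p = 0.0775).

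The matrix Hsp70 HSPA9 (mortalin) measured 536.3 and 534.0 CPM in shNC against 571.7 and 555.2 CPM in sh812. Its groups did not overlap, and its log2 fold change of 0.07 (SE 0.06) had an adjusted p of 0.444 in edgeR. The 5 mitochondrial J proteins had log2 fold changes from -0.85 to 0.20, and none was called. The lowest was DNAJC15, a gene with 24 to 46 counts per library. It measured 1.11 and 1.45 CPM in shNC against 0.684 and 0.727 CPM in sh812 (adjusted p = 0.231 in edgeR), and was chosen after its values were seen.

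Among the members placed elsewhere, DNAJC13 (RME-8, ENSG00000138246, chromosome 3, 132417526 to 132539032), a J protein of endosomes that works with HSPA8 in receptor recycling, was lower. It measured 60.7 and 56.4 CPM in shNC against 48.6 and 46.8 CPM in sh812, with a log2 fold change of -0.30 (SE 0.08; edgeR adjusted p = 0.0133). It kept its call with the length trend removed (-0.23, adjusted p = 0.0422). It lost it without sh812 replicate 1 (-0.32, adjusted p = 0.0982) and without sh812 replicate 2 (-0.27, adjusted p = 0.183). HSPA12A, a distant Hsp70 relative, measured 2.48 and 2.66 CPM in shNC against 1.48 and 1.82 CPM in sh812, a log2 fold change of -0.64 with an adjusted p of 0.168 in edgeR. DNAJC27, a small GTPase with a J domain, measured 5.22 and 3.70 CPM in shNC against 3.42 and 3.47 CPM in sh812, a log2 fold change of -0.38 with an adjusted p of 0.286 in edgeR. The 13 untested members were HSPB2, HSPB3, HSPB6, HSPB7, HSPB9, DNAJB7, DNAJB8, DNAJB13, DNAJC5B, DNAJC5G and 3 readthrough genes. None exceeded 9 counts in a library, and 7 had 0 counts in all. In the 3 readthrough genes, 99.2% to 100% of the exon bases overlap other genes on the same strand, so their 0 counts may not measure their level.

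**Figure D3:**
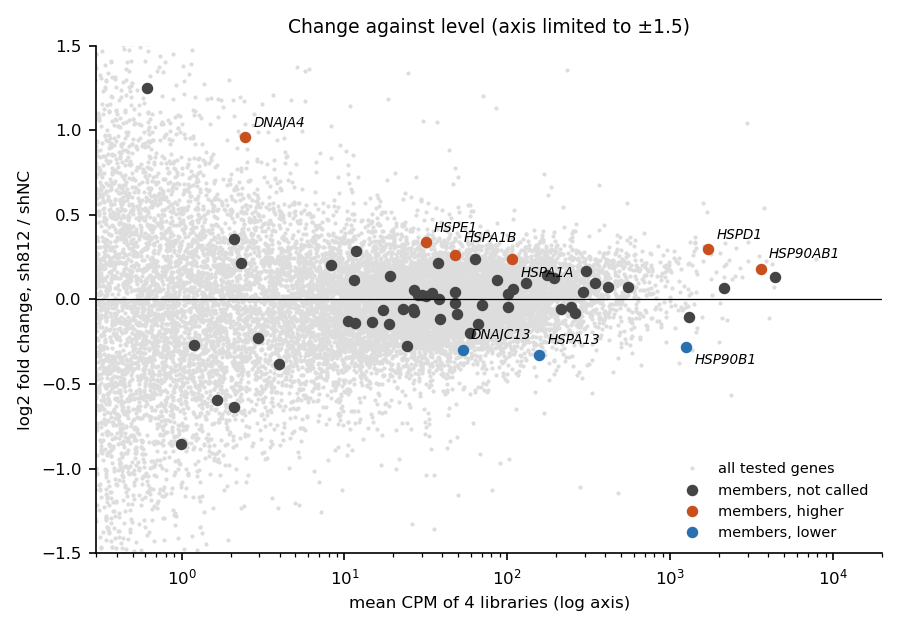
Log2 fold change of sh812 over shNC (vertical axis) against mean CPM of the 4 libraries (log axis) for members (large points) over all 16802 genes tested (small points). The called members HSPD1, HSP90AB1 and HSP90B1 exceed 1000 CPM, while DNAJA4 lies at 2.47 CPM.

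Ratios within a library do not depend on the scaling between libraries, and set genes of the compartments against each other. They use the same counts as the calls above, so they restate those differences and are no separate support. Each library's trend of counts on exon length was not removed from them. HSP90B1 counts were 18.6% and 17.9% of the summed HSP90AA1 and HSP90AB1 counts in shNC, and 12.999% and 14.03% in sh812. HSPA5 counts were 64.3% and 64.7% of HSPA8 counts in shNC, and 56.2% and 58.1% in sh812. The ER lumen members together made 26.7% and 26.5% of the cytosolic and nuclear members' counts in shNC and 20.95% and 22.1% in sh812, a ratio lower by 18.9% of its control mean. HSPA5, HSP90B1 and DNAJC10 held 89.0% of the summed CPM of the ER lumen members. HSP90AA1, HSP90AB1 and HSPA8 held 76.8% of that of the cytosolic and nuclear members. This summed ratio therefore mostly follows these genes and largely repeats the ratios before it. HSPD1 counts were 2.81 and 2.91 times those of HSPA9 in shNC and 3.43 and 3.24 times in sh812. In each of these 4 ratios the groups did not overlap. The share of such ratios among other gene pairs was not computed, and 53.6% of single genes tested did not overlap. With 2 libraries per group, the two-sided exact permutation test cannot go below p = 0.333, which is the value for each of these 4 ratios. Within compartments, HSP90B1 was 108.1% and 96.3% of HSPA5 in shNC and 88.7% and 91.6% in sh812, without overlap. HSPA1A and HSPA1B together were 6.93% and 6.60% of HSPA8 in shNC and 7.85% and 7.42% in sh812, also without overlap. HSPE1 was 1.65% and 1.98% of HSPD1 in shNC and 1.84% and 1.899% in sh812, so that the groups overlapped. HSP90AB1 was 77.8% and 83.9% of HSP90AA1 in shNC and 83.1% and 83.8% in sh812, and these overlapped too.

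Calls in the list of HSF1 targets among the members were all higher, and those in the list of ER stress targets among the members all lower. The HSF1 list holds genes that heat shock can raise, some of which, such as HSPA8 and HSP90AB1, are also abundant in unstressed cells. Of its 12 members, 5 were called higher and 0 lower. That is 41.7%, against 5.43% of all genes and 6.39% of protein-coding genes called higher. These were HSPD1, HSPE1, HSPA1A, HSPA1B and HSP90AB1. The split of reads between HSPA1A and HSPA1B is uncertain and the exons of HSPD1 and HSPE1 overlap, so the 5 calls may not be independent. The median log2 fold change of the 12 was 0.14, and 10 of the 12 had both sh812 libraries above both shNC libraries, as 26.2% of all genes tested did. With library size alone, and with the length trend removed, 1 of the 12 was called, HSPD1, with medians of 0.094 and 0.14. The count was 5 without shNC replicate 1, 8 without shNC replicate 2, 2 without sh812 replicate 2 and 0 without sh812 replicate 1. The 12 genes had a median exon length of 2855 bases, against 4423 over all genes tested. The list was drawn up with earlier results of these data known. It does not hold every gene that heat shock can raise, so its share called depends on the genes chosen. Outside it, and named after their values were seen, BAG3, HSPA4L and DNAJB4 had log2 fold changes of -0.17, -0.09 and -0.06. Those of HSPA4 and CHORDC1, also outside it, were 0.17 and 0.08. Of the 7 genes with a heat shock element match, HSPD1 and HSP90AB1 were called higher. HSP90AA1, HSPA8 and DNAJA1 had positive values that missed the threshold, and HSPA6 and DNAJB6 had log2 fold changes of -0.23 and -0.08. The ER stress list held the same 7 genes as the ER lumen, with 2 called lower, or 28.6% against 5.42% of all genes and 6.62% of protein-coding genes.

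The partners of these chaperones were read from 4 further lists. In the list of heat shock factors and cytosolic Hsp70 and Hsp90 partners, 4 of 23 tested genes were called higher and 1 lower, or 21.7% called against 10.8% of all genes and 13% of protein-coding genes tested. Of the 23, 18 were above 0, and the median log2 fold change was 0.10. CACYBP, a partner of SGT1 and Hsp90, measured 156.9 and 153.5 CPM in shNC against 191.4 and 176.8 CPM in sh812 (log2 fold change 0.25, adjusted p = 0.0108 in edgeR). PTGES3 (p23), the Hsp90 co-chaperone of the closed state, measured 772.6 and 819.3 CPM in shNC against 930.5 and 921.2 CPM in sh812 (0.22, adjusted p = 0.0121 in edgeR). SUGT1 (SGT1) had a log2 fold change of 0.25 (adjusted p = 0.03 in edgeR) and BAG4, chosen after its values were seen, one of 0.31 (adjusted p = 0.0341 in edgeR). BAG2, an exchange factor that restrains the ubiquitin ligase CHIP, was lower, at 54.8 and 61.8 CPM in shNC against 44.6 and 42.8 CPM in sh812 (-0.41, adjusted p = 0.00145 in edgeR). The gene of HSF1 itself measured 125.0 and 132.6 CPM in shNC against 146.8 and 143.9 CPM in sh812. It had a log2 fold change of 0.17 with an adjusted p of 0.0712 in edgeR, and was chosen after its values were seen. BAG3, chosen likewise, went the other way, at 155.3 and 150.8 CPM in shNC against 130.4 and 141.2 CPM in sh812 (-0.17, adjusted p = 0.0767 in edgeR). CACYBP was not called without sh812 replicate 1 (0.19, adjusted p = 0.34). PTGES3 was not called without sh812 replicate 1 (0.21, adjusted p = 0.225) or sh812 replicate 2 (0.22, adjusted p = 0.165), nor SUGT1 (0.24, adjusted p = 0.262, and 0.25, adjusted p = 0.208). BAG2 kept its call throughout. With the length trend removed, 7 genes of this list were called higher and 2 lower.

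The cytosolic chaperonin TRiC and its feeder prefoldin gave no call in edgeR, DESeq2 or limma-voom. Of the 14 genes 12 were above 0, the median log2 fold change was 0.12, and 6 had an unadjusted p under 0.05. Without shNC replicate 2, 12 of the 14 were called higher (median 0.17), and without the other libraries none was. In the list of other ER folding and unfolded protein response genes, 3 of 22 were called lower and 0 higher, with 16 below 0 and a median of -0.082. Its 13.6% called was near the share of protein-coding genes. In 13 of the 22 both sh812 libraries were below both shNC libraries, and in 4 above, against 27.4% and 26.2% of all genes tested. These 4, named after their values were seen, were SDF2L1, ERO1A, HERPUD1 and MANF. Their log2 fold changes were 0.20, 0.13, 0.12 and 0.08 (adjusted p = 0.112, 0.189, 0.323 and 0.448 in edgeR). SEL1L, the scaffold of the ER degradation ligase, measured 183.8 and 174.9 CPM in shNC against 154.03 and 146.8 CPM in sh812 (log2 fold change -0.25, adjusted p = 0.00819 in edgeR). ERN1 (IRE1), a sensor of unfolded protein, had a log2 fold change of -0.26 (adjusted p = 0.0338 in edgeR). CANX (calnexin), a lectin chaperone, measured 1124 and 1139 CPM in shNC against 1021 and 991.6 CPM in sh812 (-0.17, adjusted p = 0.0439 in edgeR). The lower calls of ERN1 and CANX were lost with the length trend removed (adjusted p = 0.124 and 0.0854), and without sh812 replicate 1 (-0.16, adjusted p = 0.547, and -0.19, adjusted p = 0.308). CANX was also not called without sh812 replicate 2 (-0.15, adjusted p = 0.437), nor with RLE scaling (adjusted p = 0.0601), and ERN1 not with DESeq2 (adjusted p = 0.0548). SEL1L was not called without sh812 replicate 1 (-0.29, adjusted p = 0.0783) or sh812 replicate 2 (-0.22, adjusted p = 0.209).

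In the mitochondrial folding list, 2 of 10 were called higher and 0 lower, or 20% against the same backgrounds, with a median of 0.099. TRAP1, the mitochondrial Hsp90, measured 91.2 and 90.9 CPM in shNC against 108.3 and 110.0 CPM in sh812 (log2 fold change 0.26, adjusted p = 0.00957 in edgeR). LONP1, a matrix protease, had a log2 fold change of 0.20 (adjusted p = 0.0244 in edgeR). Without sh812 replicate 1 the adjusted p was 0.12 for TRAP1 and 0.29 for LONP1, and without sh812 replicate 2 it was 0.163 and 0.217. LONP1 was also not called with library size alone (0.16, adjusted p = 0.0596), nor SUGT1 (0.20, adjusted p = 0.0815). Without sh812 replicate 1, BAG2 was the only gene of these 4 lists to be called.

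**Figure D4:**
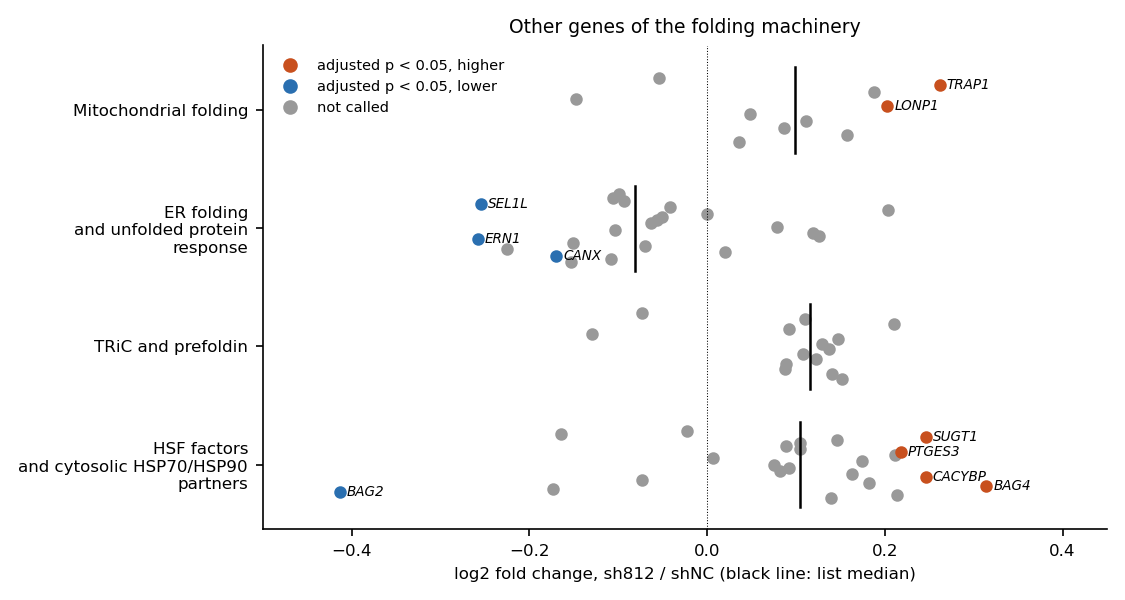
Log2 fold change of sh812 over shNC (horizontal axis) for each tested gene of 4 lists of related folding genes, with called genes named and a black line at each list's median. The ER list has its median at -0.082, and the other 3 lists have medians from 0.099 to 0.12.

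**Figure D5:**
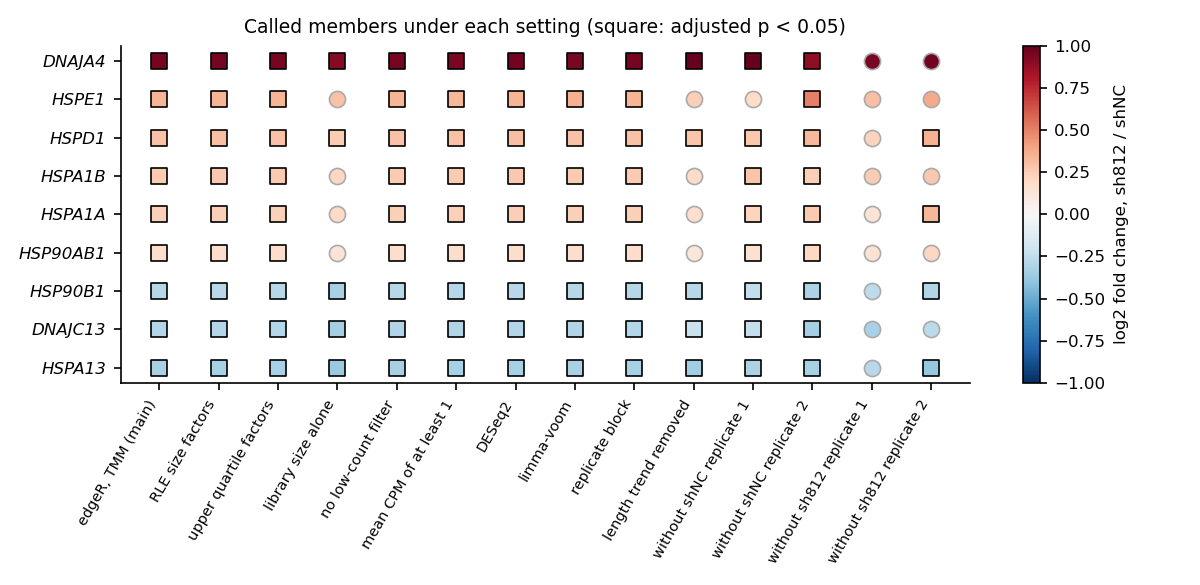
Log2 fold change (colour) of the 9 called members (rows) under the main settings, 9 alternatives with all 4 libraries and 4 that leave out 1 library (columns); squares mark an adjusted p under 0.05 and circles values above it. The colour keeps its sign in every row, and the column without sh812 replicate 1 holds no square.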

How the data were processed

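Poly(A) RNA libraries were made with a dUTP strand-marking method and sequenced as paired reads, per the labels' protocols. The authors deposited raw read counts per gene, not normalized. The submitters' processing notes name fastp, STAR 2.7.1a, featureCounts, DESeq2 and hg38; the annotation release and strand setting are not given in the sources used here. Reads of overlapping genes and near-identical copies may therefore be shared.

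The test was edgeR 4.0.16 (glmQLFit and glmQLFTest, two-sided, after filterByExpr and TMM) under R 4.3.3, on 4 libraries with no covariate, and p-values were adjusted by Benjamini-Hochberg over 16802 genes, with a threshold of 0.05. Fitted log2 fold changes carry a prior count of 0.125, and the SE comes from the F statistic. CPM use TMM library sizes. The test was tried on simulated data. Exon lengths and gene positions are from GENCODE 29 (GRCh38), which may not be the authors' annotation. Alternatives were RLE, upper quartile and library size scaling, other filters, DESeq2 1.42.0, limma-voom 3.58.1, a replicate block, removal of each library's length trend (lowess, span 0.3) and each library left out.

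The members and lists were chosen with earlier results of these data known. Named genes are every called member, 17 members named whatever their call, the 5 uncalled members with the largest change at a mean CPM of at least 1, METTL3, and up to 4 called genes from each other list. The chi-square per gene within a pair was 8.43 for shNC and 4.51 for sh812, so the libraries of a pair differed by more than counting noise and none was treated as a duplicate deposit. One marker gene is not reported here.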

Additional observations from a re-analysis of the deposited data

How the results depend on the processing

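Each alternative changed 1 choice, except that DESeq2 brought its own scaling and that the low-count filter, rerun on 3 libraries, changed the genes tested when 1 was left out. With library size alone, 7 members were called (2 higher, 5 lower) against 9, and 2 cytosolic and nuclear members against 4. These 2 were DNAJA4, higher, and DNAJB2, lower. With the length trend removed the counts of members and of cytosolic and nuclear members were 7 (3 higher, 4 lower) and 2 (DNAJA4 and HSPA4, higher). In each of these settings, 1 of the 4 main cytosolic and nuclear calls was kept. Without a low-count filter the counts were 12 and 7. Over all genes, library size alone gave 561 higher and 1328 lower (29.7% higher against 50.1%). Of the 1822 genes called, 1326 were called in the same direction with the length trend removed. With 1 library left out the remaining sample of its group is assumed to vary like the others. The count of all called genes then ran from 587 to 3252, of members from 0 to 17, of cytosolic and nuclear members from 0 to 11 and of ER members from 0 to 3. Without sh812 replicate 1 the spread rests on the shNC pair, and no member was called. METTL3 ran from -2.52 to -2.33 in these fits and was called in each. HSPA1L, not called, had its lowest value, -0.036, when sh812 replicate 2 was left out and its highest, 0.66, when sh812 replicate 1 was; the cause was not tested. The 9 called members kept their sign in all 13 alternatives. The replicate numbers showed no sign of pairing (correlation of deviations 0.0164), and with the replicate block 10 members were called (7 higher, 3 lower), the same 9 among them, while CANX was not (-0.17, adjusted p = 0.0571).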

Other observations

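Rows named as pseudogenes of abundant members held few counts. The 18 HSPD1 rows together held 0.52% of the HSPD1 count over the 4 libraries, the 17 HSPA8 rows 0.13% of that of HSPA8, and the 26 HSPE1 rows 6.17% of that of HSPE1. The HSPE1 rows summed to 68 and 56 counts in shNC and 90 and 58 counts in sh812. HSPB8, a small heat shock protein chosen after its values were seen, had 20 and 6 counts in shNC and 38 and 24 in sh812 (log2 fold change 1.25, SE 0.59, adjusted p = 0.189 in edgeR).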
